A study of Mus musculus with 3 samples.

Results

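FSP1+ fibroblasts of the infarcted mouse heart were compared with fibroblasts of the uninjured mouse heart by RNA sequencing, with 1 library for each group. Expression is given as FPKM, a level of sequenced fragments scaled to the length of the transcript and to the size of the library. The comparison took the 18249 entries of 31930 that could be named by their position on the GRCm38 genome, and kept the 12128 of these that reached 1 FPKM in at least one library. For each gene the log2 ratio of FPKM with 1 added was computed, FSP1+ over uninjured, so that a positive ratio is a higher level in FSP1+ fibroblasts and a ratio of 1 is a 2-fold difference. With no replicates the spread between animals is unknown, no difference below has a test, and each value is a description of these libraries.

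The FSP1+ cells came from FSP1-GFP mice, a reporter line on which GFP is driven by the promoter of FSP1 (gene S100a4). They were GFP+ cells sorted from ventricles 10 days after a myocardial infarction (MI), with cells positive for the leukocyte antigen CD45 or the endothelial antigen CD31 gated out. The uninjured cells came from hearts of wild type mice labelled C57/BL6, and were those that attached to a culture plate within 4 h, so that they were chosen by adhesion and not by GFP. All mice are labelled as 12 weeks old. By the labels, injury, reporter allele, sorting by GFP and plating therefore differ together between the groups and cannot be told apart. The FSP1 promoter is also used by other cell types, each sort pooled several hearts, and a cell counts as GFP+ by its reporter and not by its own S100a4 mRNA. The series also has a library of GFP+ cells from infarcted αSMA-GFP mice, sorted 10 days after MI, which is used here for checks only. CD45+ and CD31+ cells were not gated out of that sort. The authors call the share of such cells there negligible.

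After an infarct the dead muscle is replaced by granulation tissue, in which fibroblasts proliferate, secrete collagen, proteoglycans and elastic fibers, and exchange signals with macrophages and with new capillaries. Resident fibroblasts of the healthy heart keep a low turnover and express Pdgfra, Tcf21 and Dpt, while activated fibroblasts are known for periostin, thrombospondins and, in myofibroblasts, smooth muscle actin. S100A4 is a small calcium-binding protein of motile cells, found in fibroblasts and also in macrophages and other leukocytes.

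S100a4 (chr3:90603770-90606045 on GRCm38), the gene whose promoter marks the sorted cells, had 35.3 FPKM in FSP1+ fibroblasts, against 11.5 FPKM in uninjured fibroblasts (log2 ratio 1.54). Acta2 (chr19:34240336-34255373), which encodes smooth muscle actin, had 321 FPKM in FSP1+ fibroblasts, against 110.0 FPKM in uninjured fibroblasts (log2 ratio 1.54). Both were therefore higher in the FSP1+ library, and both were also detected in the uninjured library. For the uninjured and the αSMA library, the number in the record's title is not the number in its description, so the records leave these labels unchecked. In the table that sets those libraries side by side, Acta2 was at 77.1 FPKM in the library labelled αSMA and at 95.4 FPKM in the library labelled uninjured, which goes against the order the labels imply. Some markers of activated fibroblasts lay further apart in that direction. Postn was at 101 FPKM in the library labelled αSMA and 593 FPKM in the library labelled uninjured. Cthrc1 was at 3.45 and 264 FPKM in that order, and Col1a1 at 316 and 2037 FPKM in that order. Of the 20 measured matricellular genes, 13 passed 2-fold on this side and 2 on the opposite side. Those 2 were Thbs1, at 1796 FPKM (αSMA) and 101 FPKM (uninjured), and Ccn1, at 1252 and 244 FPKM in that order. Between FSP1+ and the library labelled αSMA, Acta2 was at 279.8 and 65.0 FPKM in that order. "Uninjured" below means the library labelled uninjured, and every ratio rests on that label. The injury, sorting and plating named for each library rest on its label too. Set against the library labelled αSMA instead, in the table of that pair and chosen after seeing the data, FSP1+ fibroblasts had medians on the other side of 0 for 8 of the 23 lists that are past 2-fold below, the fibrillar collagens (0.98), other collagens (0.02), matricellular genes (0.98), heat shock proteins (-0.24), inflammatory genes (-1.73), chemokines (-0.81), mitochondrial transcripts (-0.83) and genes of heme, iron and oxidative stress (-0.88). Of the others, endothelial markers (1.94), macrophage markers (1.51), smooth muscle genes (1.63), interferon-stimulated genes (1.52), mitosis (2.11), DNA replication (1.38) and proteoglycans (-1.11) stayed past 2-fold on the same side. So did erythroid and platelet markers (2.57), acute phase genes (1.29), antigen presentation (1.49) and genes of Notch and vessel guidance (1.37). Elastic fibers and microfibrils (-0.38), immediate early genes (0.47), glycolysis and hypoxia genes (0.77) and fatty acid handling (0.46) kept their side but came under 2-fold. Of the fibroblast markers, Pdgfra could be read only from an entry that also holds a small RNA gene, and Tcf21 had no entry of its own.

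Of the 12128 measured genes, 1761 (14.5%) were at least 2-fold higher in FSP1+ fibroblasts and 1847 (15.2%) were at least 2-fold lower, with a median log2 ratio of 0.04. At a 4-fold line, 613 genes were higher and 179 were lower. The direction depended on level. Among the 4518 genes that reached 1 to 5 FPKM in their higher library, 238 were higher and 1069 lower (median -0.52). Among the 1525 genes that reached 50 FPKM, 556 were higher and 179 lower (median 0.74). Over the 5385 genes that reached 10 FPKM, 23.7% were higher and 8.06% lower. Genes of odor receptors, which are not known from heart fibroblasts, were mostly on the lower side: of 307 measured olfactory receptor genes, 2 were higher and 173 lower, and the summed FPKM of all 1075 named olfactory receptor genes was 472 in FSP1+ and 1302 in uninjured fibroblasts. Beside this, the smallest steps in FPKM, which stand for a single read, were 1.57 times as large in the uninjured library as in the FSP1+ library (473 entries below 0.15 FPKM in both). The part of this difference in the counts was not tested, and genes under 10 FPKM are named below only with their levels. Rescaling FPKM to TPM, in which the named entries of each library sum to the same total, moved the median log2 ratio of all genes by -0.39, and the higher genes then made up 24.9% of all genes past 2-fold, against 48.8% with FPKM as deposited. A ratio taken through the αSMA library gave 66.5%. In that ratio the αSMA level is both divided by and multiplied in. It therefore sets the same FSP1+ and uninjured libraries against each other under the scaling of other tables, and is not an independent estimate. The added 1 and the minimum of 1 were kept in TPM units, in which 14516 genes were measured. Their part in the shift under TPM was not told apart from that of the rescaling. The directions of whole lists below are therefore given with those that flip under this rescaling.

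**Figure D1:**
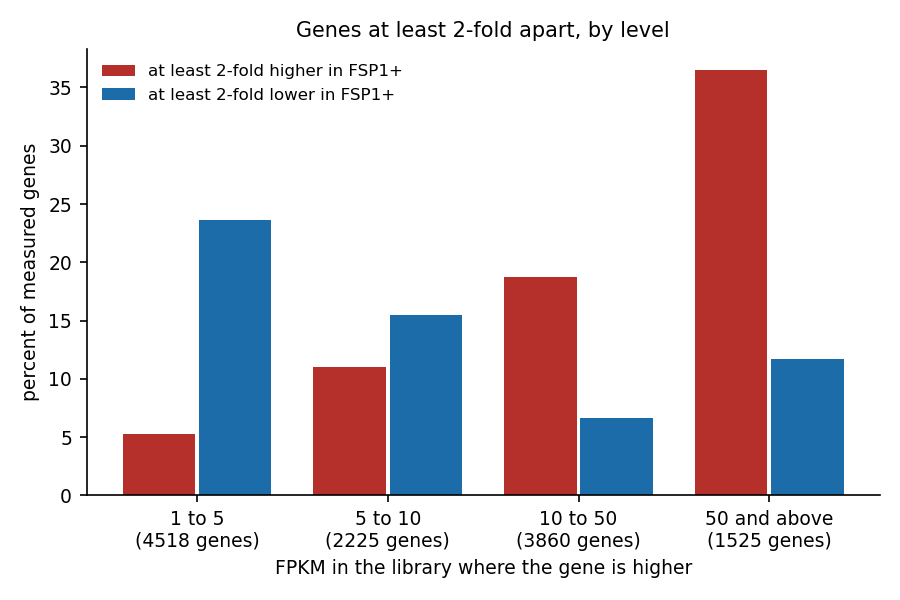
Percent of measured genes at least 2-fold higher (red) or lower (blue) in the FSP1+ library, grouped by the FPKM of the library in which the gene was higher. Lower genes prevailed among the 4518 genes of 1 to 5 FPKM (238 higher, 1069 lower), and higher genes among the 1525 genes of 50 FPKM and above (556 higher, 179 lower).

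A gene near the 2-fold line differs little from its neighbour across it: Tbk1, a kinase of the interferon response, was just inside with 15.5 FPKM in FSP1+ and 7.23 FPKM in uninjured fibroblasts, and Tmem104 was just outside with 7.88 FPKM in FSP1+ and 3.44 FPKM in uninjured fibroblasts. The gene lists described next hold 871 genes, of which 210 had no symbol at a locus of their own, 30 stayed below 1 FPKM in both libraries and 631 were measured. Each list is described by how many of its measured members passed 2-fold in each direction, beside 14.5% and 15.2% over all genes, and by its median, beside 0.04. For lists of abundant genes the nearer background is that of genes of 50 FPKM and above, of which 36.5% were higher and 11.7% lower with a median of 0.74, or of 10 FPKM and above, with a median of 0.46.

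**Figure D2:**
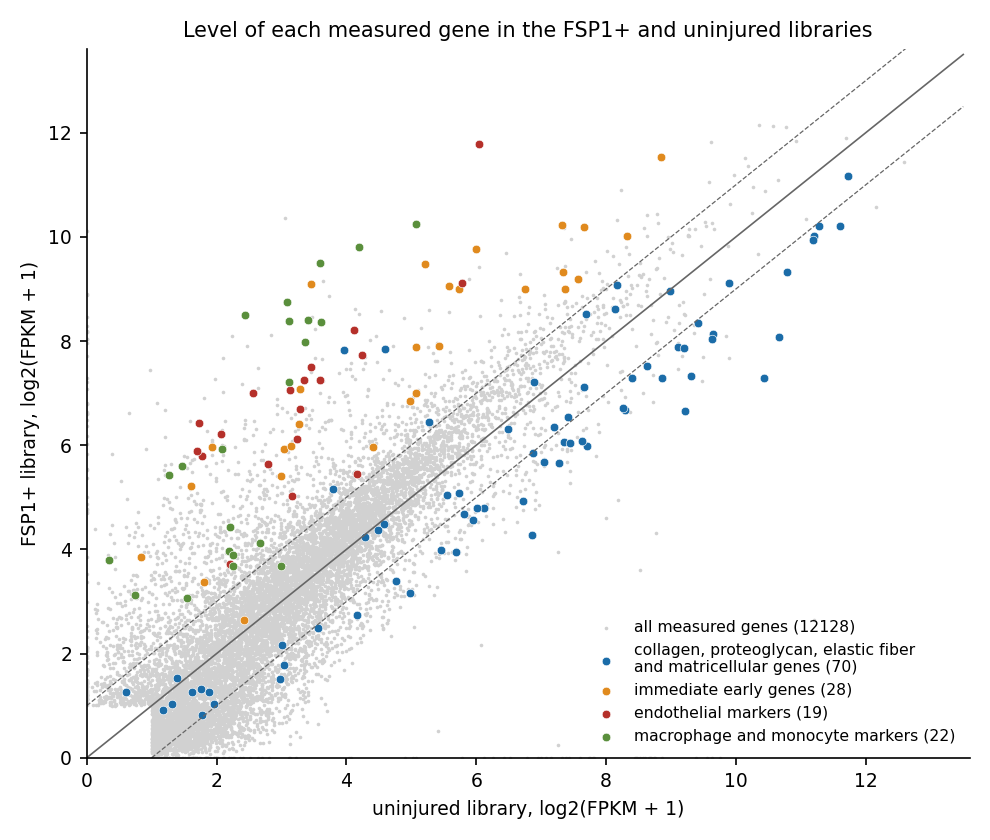
Level of each of the 12128 measured genes as log2(FPKM + 1), FSP1+ on the vertical axis and uninjured on the horizontal axis, 1 library each; the solid line marks equal levels and the dashed lines 2-fold. The 19 endothelial markers (red) lay above the upper dashed line, as did 21 of 22 macrophage markers (green) and 27 of 28 immediate early genes (orange), and most abundant matrix genes (blue) lay below equality.

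Markers of endothelium and macrophages stood far apart between the libraries, although CD31+ and CD45+ cells had been gated out of the FSP1+ sort. All 19 measured endothelial markers were at least 2-fold higher in FSP1+ fibroblasts (median log2 ratio 3.91), and their summed FPKM was 5923 in FSP1+ and 258 in uninjured fibroblasts. Pecam1, which encodes the gated antigen CD31, had 179.7 FPKM in FSP1+ fibroblasts, against 9.96 FPKM in uninjured fibroblasts (log2 ratio 4.04). Cdh5, the cadherin of endothelial junctions, had 73.6 FPKM in FSP1+ fibroblasts, against 3.21 FPKM in uninjured fibroblasts (log2 ratio 4.15). Kdr, the main receptor for VEGF-A, had 133 FPKM in FSP1+ fibroblasts, against 7.80 FPKM in uninjured fibroblasts (log2 ratio 3.93). Fabp4, a fatty acid carrier of capillary endothelium and of adipocytes, had 3542 FPKM in FSP1+ fibroblasts, against 65.0 FPKM in uninjured fibroblasts (log2 ratio 5.75). It was among the 10 most abundant protein-coding genes of the FSP1+ library by the rule for named genes. None of the defining endothelial markers was at 0 in either library. Tek, the receptor for angiopoietins, was nearest to equality, with 42.7 FPKM in FSP1+ and 16.9 FPKM in uninjured fibroblasts. The αSMA library was also above the uninjured library for this list, at 14 of 19 members and a median of 1.91, αSMA over uninjured. CD31+ cells had not been gated out of its sort.

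Macrophage and monocyte markers were higher in the same way, at 21 of 22 measured members and a median of 4.12, with a summed FPKM of 5288 in FSP1+ and 155 in uninjured fibroblasts. The complement C1q chains, which tissue macrophages make, stood high: C1qc had 720.1 FPKM in FSP1+ fibroblasts, against 11.01 FPKM in uninjured fibroblasts (log2 ratio 5.91). Cd14, a co-receptor for bacterial lipopolysaccharide, had 359.6 FPKM in FSP1+ fibroblasts, against 4.43 FPKM in uninjured fibroblasts (log2 ratio 6.05). Lyz2, the lysozyme of myeloid cells, had 1219.8 FPKM in FSP1+ fibroblasts, against 32.8 FPKM in uninjured fibroblasts (log2 ratio 5.18). Adgre1, which encodes the macrophage antigen F4/80, had 47.7 FPKM in FSP1+ fibroblasts, against 1.76 FPKM in uninjured fibroblasts (log2 ratio 4.14). Ptprc, which encodes the gated antigen CD45, had 13.9 FPKM in FSP1+ and 3.79 FPKM in uninjured fibroblasts, so that it was present in both and far below the C1q chains in the FSP1+ library. Gpnmb, a glycoprotein of phagocytes, was the member short of 2-fold, with 11.9 FPKM in FSP1+ and 6.94 FPKM in uninjured fibroblasts. In the αSMA library 18 of 22 macrophage markers were higher as well, with a median of 3.10, αSMA over uninjured. CD45+ cells had not been gated out of its sort. The FSP1+ sort removed cells by surface antigen and the RNA was taken from what remained, and the part of these markers in the results below was not tested. In bulk samples fewer cells of a type and less RNA per cell cannot be told apart.

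Of 8 measured erythroid and platelet markers 7 were at least 2-fold higher (median 3.22). The platelet chemokine Ppbp had 55.8 FPKM in FSP1+ and 0.313 FPKM in uninjured fibroblasts, and the platelet receptor subunit Gp9 had 59.5 FPKM in FSP1+ and 0.883 FPKM in uninjured fibroblasts. The beta globin Hbb-bs had 57.3 FPKM in FSP1+ and 7.55 FPKM in uninjured fibroblasts. Of 8 measured neutrophil markers 4 were higher and 1 lower (median 0.95): S100a8, an abundant calcium-binding protein of neutrophils, had 111 FPKM in FSP1+ and 1.12 FPKM in uninjured fibroblasts, whereas the granule enzyme Mpo stayed below 1 FPKM in both libraries. Lymphocyte and dendritic cell markers were low in both libraries, with a summed FPKM of 42.8 in FSP1+ and 45.5 in uninjured fibroblasts over 13 measured members, 3 of them higher and 6 lower, and Cd3e stayed below 1 FPKM in both. Cardiomyocyte markers were low as well, at a summed 137 FPKM in FSP1+ and 78.6 FPKM in uninjured fibroblasts over 10 members, 4 higher and 1 lower: troponin T (Tnnt2) had 22.9 FPKM in FSP1+ and 12.8 FPKM in uninjured fibroblasts. Of 11 measured Schwann cell and mesothelial markers only Wt1, a transcription factor of the epicardium, passed 2-fold, with 9.95 FPKM in FSP1+ and 2.12 FPKM in uninjured fibroblasts.

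Genes of the extracellular matrix were lower in FSP1+ fibroblasts than in the library labelled uninjured, while staying among the most abundant genes of both libraries. None of the 8 measured fibrillar collagens was at least 2-fold higher and 4 were lower (median -1.02), and their summed FPKM was 2958 in FSP1+ and 7461 in uninjured fibroblasts. Col1a1, the larger chain of type I collagen, had 1034 FPKM in FSP1+ fibroblasts, against 2357 FPKM in uninjured fibroblasts (log2 ratio -1.19). Its partner Col1a2 had 643 FPKM in FSP1+ fibroblasts, against 1767 FPKM in uninjured fibroblasts (log2 ratio -1.46). Col3a1, which forms the thin fibers of young scar, had 1175 FPKM in FSP1+ and 3112 FPKM in uninjured fibroblasts, in an entry that also holds a small RNA gene. That entry is counted in the sums and among the 4 lower genes above. Without it the median of the fibrillar collagens was -0.84, short of 2-fold. Col5a1, which sets fiber diameter, had 66.1 FPKM in FSP1+ and 162 FPKM in uninjured fibroblasts. Of the other collagens 10 of 19 were lower and 1 was higher (median -1.13). The network-forming Col8a2 had 18.3 FPKM in FSP1+ fibroblasts, against 115 FPKM in uninjured fibroblasts (log2 ratio -2.59) and Col8a1 had 101 FPKM in FSP1+ and 312 FPKM in uninjured fibroblasts. The fiber-associated Col14a1 had 62.7 FPKM in FSP1+ and 207 FPKM in uninjured fibroblasts, and the microfibrillar Col6a1 had 236 FPKM in FSP1+ and 549.8 FPKM in uninjured fibroblasts.

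The collagens of basement membranes were split. Col4a5 had 7.94 FPKM in FSP1+ fibroblasts, against 30.4 FPKM in uninjured fibroblasts (log2 ratio -1.81) and Col4a6 had 2.43 FPKM in FSP1+ fibroblasts, against 7.19 FPKM in uninjured fibroblasts (log2 ratio -1.26), and Col15a1, which borders basement membranes, had 31.9 FPKM in FSP1+ and 45.9 FPKM in uninjured fibroblasts. Col4a1 had 541 FPKM in FSP1+ fibroblasts, against 288 FPKM in uninjured fibroblasts (log2 ratio 0.91) and Col4a2 had 363 FPKM in FSP1+ fibroblasts, against 206 FPKM in uninjured fibroblasts (log2 ratio 0.81), both above equality and short of 2-fold. Col18a1, the source of endostatin, had 86.4 FPKM in FSP1+ fibroblasts, against 37.6 FPKM in uninjured fibroblasts (log2 ratio 1.18) and was the only member of the other collagens past 2-fold on the higher side. Endothelial cells also make these chains, and the endothelial markers given above were higher in the same library, whose part here was not tested. With TPM, Col1a1 and Col1a2 kept their direction. Since TPM moved the median log2 ratio of all genes by -0.39, this check could hardly have turned them.

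Elastic fibers and microfibrils were represented by 15 measured genes, 8 lower and 1 higher (median -1.02). Elastin (Eln) had 156 FPKM in FSP1+ fibroblasts, against 1373 FPKM in uninjured fibroblasts (log2 ratio -3.13), the lowest ratio of any gene on the matrix lists. Mfap4, a microfibril-associated glycoprotein, had 270.3 FPKM in FSP1+ fibroblasts, against 1626 FPKM in uninjured fibroblasts (log2 ratio -2.58). Fibrillin 1 (Fbn1), the backbone of microfibrils, had 65.0 FPKM in FSP1+ and 173 FPKM in uninjured fibroblasts, and fibulin 1 (Fbln1) had 261 FPKM in FSP1+ and 795 FPKM in uninjured fibroblasts. Fibulin 2 (Fbln2) was near equal, with 497 FPKM in FSP1+ and 506 FPKM in uninjured fibroblasts. Emilin2 was the member on the higher side, with 34.6 FPKM in FSP1+ and 12.9 FPKM in uninjured fibroblasts. Of 8 measured proteoglycans 6 were lower and 1 higher (median -1.18). Decorin (Dcn), which binds collagen fibrils, had 978 FPKM in FSP1+ fibroblasts, against 2318 FPKM in uninjured fibroblasts (log2 ratio -1.24), lumican (Lum) had 280.2 FPKM in FSP1+ and 798 FPKM in uninjured fibroblasts and biglycan (Bgn) had 1175 FPKM in FSP1+ and 2481 FPKM in uninjured fibroblasts. The higher member was serglycin (Srgn), the granule proteoglycan of blood cells and endothelium, with 225 FPKM in FSP1+ and 14.6 FPKM in uninjured fibroblasts.

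Matricellular genes of activated fibroblasts, which an infarct is known to induce, were lower as well, at 12 of 20 measured members and 1 higher (median -1.10). Periostin (Postn), the usual marker of the activated state, had 324 FPKM in FSP1+ fibroblasts, against 685 FPKM in uninjured fibroblasts (log2 ratio -1.08). Comp, a collagen-binding pentamer, had 161 FPKM in FSP1+ fibroblasts, against 635 FPKM in uninjured fibroblasts (log2 ratio -1.98). Ccn5, a growth-restraining member of the CCN family, had 100.1 FPKM in FSP1+ fibroblasts, against 594 FPKM in uninjured fibroblasts (log2 ratio -2.56). Cilp, a matrix protein of the pressure-loaded heart, had 155 FPKM in FSP1+ and 464 FPKM in uninjured fibroblasts, and Cthrc1, a secreted marker of scar fibroblasts, had 103 FPKM in FSP1+ and 305 FPKM in uninjured fibroblasts. Thbs2 had 29.4 FPKM in FSP1+ and 104 FPKM in uninjured fibroblasts, whereas Thbs1, an activator of latent TGF-β, had 148 FPKM in FSP1+ and 117 FPKM in uninjured fibroblasts. Osteopontin (Spp1) was the single member on the higher side, with 228 FPKM in FSP1+ fibroblasts, against 23.2 FPKM in uninjured fibroblasts (log2 ratio 3.24). It is made by macrophages as well as fibroblasts. Fn1, Tnc, Ctgf and Sfrp2 had no entry of their own and were not read.

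The αSMA library gave its own values against the same uninjured library. In that table the median log2 ratio, αSMA over uninjured, was -1.85 for the fibrillar collagens and -1.35 for the matricellular genes, beside -1.02 and -1.10 for FSP1+ over uninjured in its own table. The comparisons share the uninjured library, so the values are not independent. Against the library labelled αSMA, Col1a1 had 899.5 FPKM in FSP1+ and 266 FPKM in αSMA+ fibroblasts and Postn had 282 FPKM in FSP1+ and 84.8 FPKM in αSMA+ fibroblasts. Eln had 136 FPKM in FSP1+ and 67.3 FPKM in αSMA+ fibroblasts, Comp 140 and 62.4 FPKM and Cthrc1 90.0 and 2.91 FPKM in that order. The direction of these genes therefore turns with the library they are set against. Dcn, with 851 FPKM in FSP1+ and 3145 FPKM in αSMA+ fibroblasts, was lower against both.

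**Figure D3:**
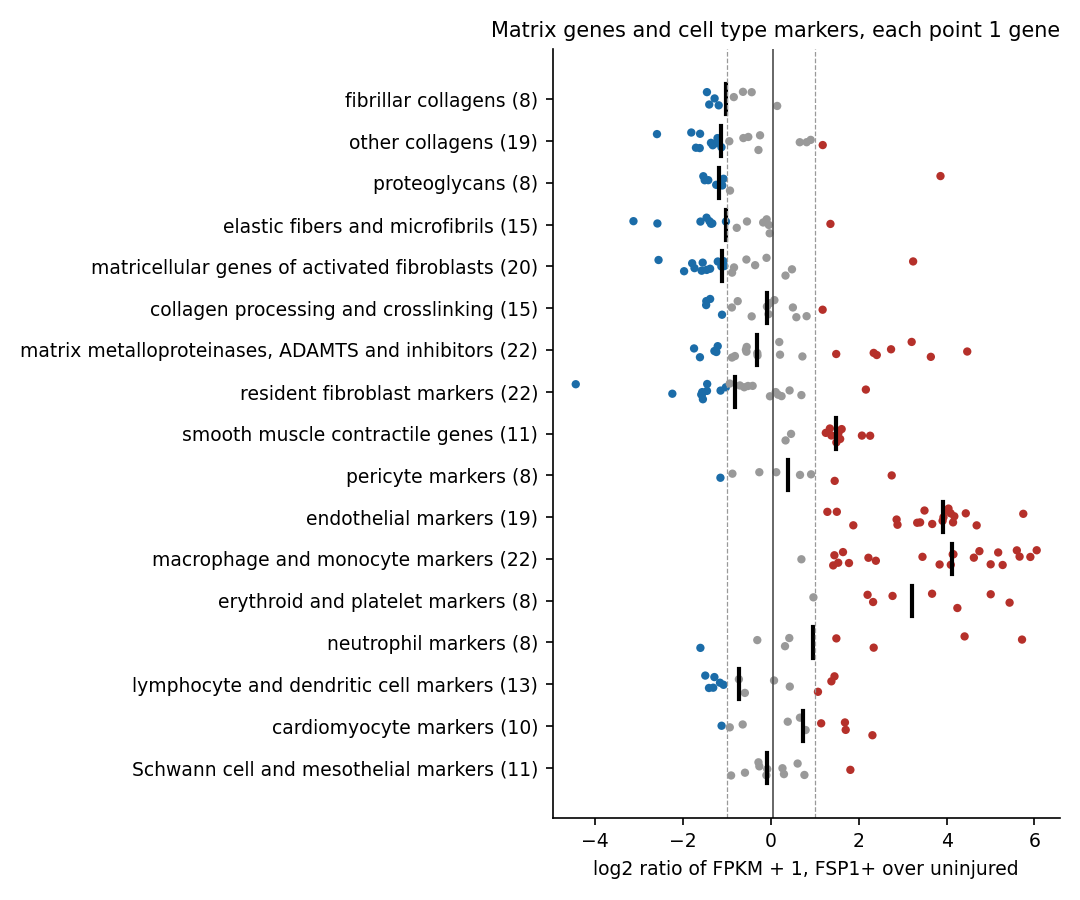
Log2 ratio of FPKM + 1, FSP1+ over uninjured, for the measured members of matrix and cell type lists, with the number of members in parentheses. Each point is 1 gene, red at least 2-fold higher and blue at least 2-fold lower; short bars are list medians, the solid line is the median of all genes (0.04) and dashed lines mark 2-fold. Matrix lists had medians between -1.18 and -1.02, and endothelial and macrophage markers had medians of 3.91 and 4.12.

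Enzymes that build collagen were less far apart than collagen itself. Of 15 measured genes of collagen processing and crosslinking 1 was higher and 4 lower (median -0.09). The crosslinking enzyme Loxl1 had 60.1 FPKM in FSP1+ and 168 FPKM in uninjured fibroblasts, and the procollagen N-proteinase Adamts2 had 70.7 FPKM in FSP1+ and 186 FPKM in uninjured fibroblasts. The prolyl hydroxylase subunit P4hb, which also folds other proteins, had 906 FPKM in FSP1+ and 941 FPKM in uninjured fibroblasts. The lysyl hydroxylase Plod1 was the higher member, with 117 FPKM in FSP1+ and 51.1 FPKM in uninjured fibroblasts. Of 22 measured metalloproteinases, ADAMTS proteases and plasminogen activators 7 were higher and 5 lower (median -0.31). Gelatinase A (Mmp2) had 272 FPKM in FSP1+ fibroblasts, against 915 FPKM in uninjured fibroblasts (log2 ratio -1.75), and Mmp14, its activator at the cell surface, had 133 FPKM in FSP1+ and 196 FPKM in uninjured fibroblasts. On the higher side stood the aggrecanases Adamts1, with 273 FPKM in FSP1+ fibroblasts, against 20.9 FPKM in uninjured fibroblasts (log2 ratio 3.64), and Adamts4, with 121 FPKM in FSP1+ fibroblasts, against 12.3 FPKM in uninjured fibroblasts (log2 ratio 3.21). The urokinase receptor Plaur had 136 FPKM in FSP1+ fibroblasts, against 5.20 FPKM in uninjured fibroblasts (log2 ratio 4.47), and urokinase itself (Plau) had 9.87 FPKM in FSP1+ and 1.04 FPKM in uninjured fibroblasts.

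Resident fibroblast markers were 1 higher and 10 lower of 22 measured (median -0.82). Gelsolin (Gsn), which severs actin filaments and was the most abundant protein-coding gene of the uninjured library by the rule for named genes, had 2786 FPKM in FSP1+ fibroblasts, against 6167 FPKM in uninjured fibroblasts (log2 ratio -1.15). Matrix Gla protein (Mgp), an inhibitor of calcification, had 1529 FPKM in FSP1+ fibroblasts, against 4588 FPKM in uninjured fibroblasts (log2 ratio -1.58). Pi16, a marker of adventitial fibroblasts, had 150.2 FPKM in FSP1+ fibroblasts, against 715 FPKM in uninjured fibroblasts (log2 ratio -2.24). The complement inhibitor Serping1 and dermatopontin (Dpt) stayed within 2-fold, Serping1 with 479 FPKM in FSP1+ and 730.0 FPKM in uninjured fibroblasts and Dpt with 154 FPKM in FSP1+ and 156 FPKM in uninjured fibroblasts. Vimentin (Vim) had 1995 FPKM in FSP1+ and 1232 FPKM in uninjured fibroblasts. Ly6a, which encodes the stem cell antigen Sca-1 and is also used by endothelium, was the higher member, with 674 FPKM in FSP1+ fibroblasts, against 149.9 FPKM in uninjured fibroblasts (log2 ratio 2.16). The entry of Pdgfra had 18.98 FPKM in FSP1+ and 433 FPKM in uninjured fibroblasts, a gap wider than that of any other resident fibroblast marker, but since it holds a small RNA gene its value cannot be read as Pdgfra mRNA. Without such entries the list kept its direction.

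Smooth muscle contractile genes were higher at 9 of 11 measured members with none lower (median 1.49). Myh11, the myosin heavy chain of mature smooth muscle, had 196 FPKM in FSP1+ fibroblasts, against 40.2 FPKM in uninjured fibroblasts (log2 ratio 2.26). The myosin light chain Myl9 had 694 FPKM in FSP1+ fibroblasts, against 164 FPKM in uninjured fibroblasts (log2 ratio 2.07), calponin (Cnn1) had 85.7 FPKM in FSP1+ and 28.1 FPKM in uninjured fibroblasts and smoothelin (Smtn) had 155 FPKM in FSP1+ and 54.7 FPKM in uninjured fibroblasts. Myocd, the transcription factor that drives these genes, was low in both libraries, with 3.395 FPKM in FSP1+ and 2.49 FPKM in uninjured fibroblasts. In the table of the αSMA library the same list had a median of 0.07, αSMA over uninjured. Pericyte markers were mixed, 2 higher and 1 lower of 8 (median 0.39). Mcam, which endothelium also carries, had 87.5 FPKM in FSP1+ and 12.1 FPKM in uninjured fibroblasts, while Rgs5 had 61.0 FPKM in FSP1+ and 31.9 FPKM in uninjured fibroblasts, Cspg4 (the NG2 proteoglycan) had 21.6 FPKM in FSP1+ and 13.3 FPKM in uninjured fibroblasts and Pdgfrb had 54.9 FPKM in FSP1+ and 102 FPKM in uninjured fibroblasts.

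**Figure D4:**
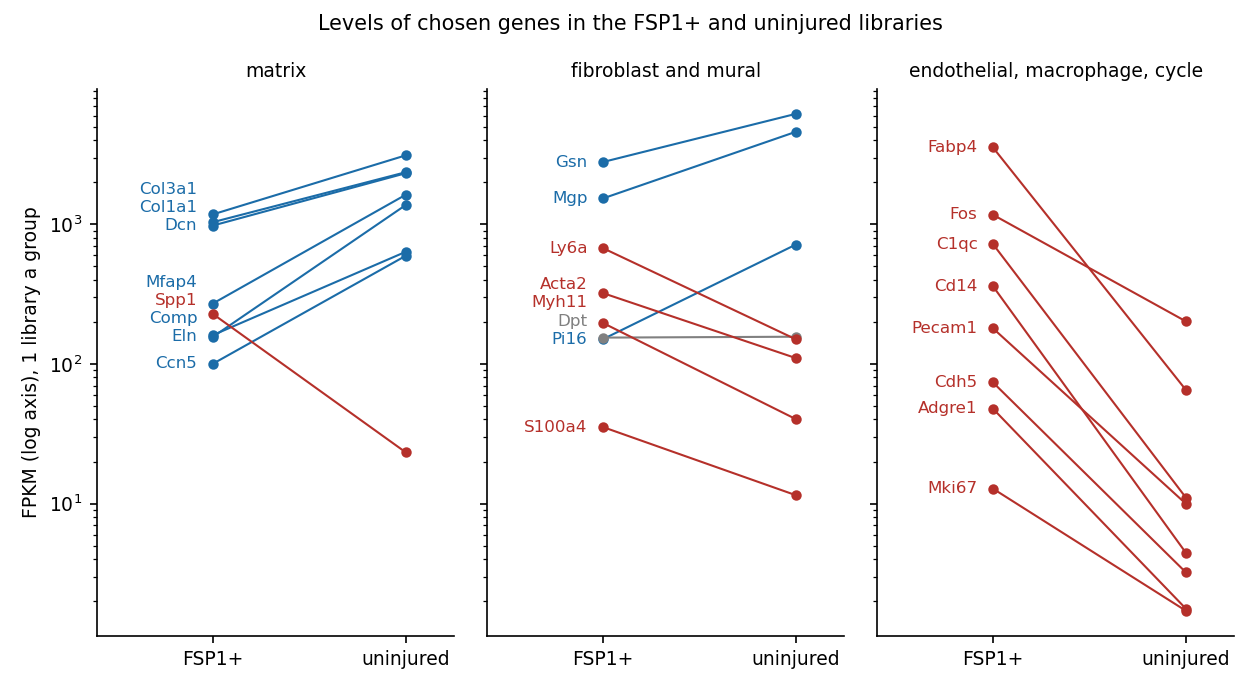
FPKM of chosen genes on a log axis, FSP1+ left and uninjured right, each line 1 gene and each end 1 library (red at least 2-fold higher in FSP1+, blue at least 2-fold lower, grey neither). Matrix genes such as Eln (156 in FSP1+, 1373 in uninjured) end higher on the right, while Spp1, Acta2, Myh11 and the endothelial and macrophage markers end lower on the right.

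Immediate early genes, which switch on within minutes of a stimulus and are also induced by enzymatic dissociation of tissue, were higher at 27 of 28 measured members with none lower (median 2.76). Their summed FPKM was 13058 in FSP1+ and 2176 in uninjured fibroblasts. Atf3, a stress-induced transcription factor, had 546 FPKM in FSP1+ fibroblasts, against 10.0 FPKM in uninjured fibroblasts (log2 ratio 5.63). Socs3, the feedback inhibitor of cytokine receptors, had 715 FPKM in FSP1+ fibroblasts, against 36.0 FPKM in uninjured fibroblasts (log2 ratio 4.27). The AP-1 subunits Fos and Junb were abundant in both: Fos had 1168 FPKM in FSP1+ fibroblasts, against 201 FPKM in uninjured fibroblasts (log2 ratio 2.53) and Junb had 2959.9 FPKM in FSP1+ fibroblasts, against 458 FPKM in uninjured fibroblasts (log2 ratio 2.69). Zfp36, which marks inflammatory mRNAs for decay, had 865 FPKM in FSP1+ fibroblasts, against 63.1 FPKM in uninjured fibroblasts (log2 ratio 3.76). Egr3 was the member within 2-fold, with 5.30 FPKM in FSP1+ and 4.38 FPKM in uninjured fibroblasts. By their labels the libraries differed in handling, as one was sorted by GFP and the other plated for 4 h. That difference cannot be told apart from injury. In the αSMA table the median of this list was 2.49, αSMA over uninjured.

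Heat shock proteins followed with 10 of 12 higher and none lower (median 2.18). Hspa1b, an inducible HSP70 chaperone, had 1911 FPKM in FSP1+ fibroblasts, against 298 FPKM in uninjured fibroblasts (log2 ratio 2.68), and the small chaperone Hspb1 had 1152 FPKM in FSP1+ fibroblasts, against 162 FPKM in uninjured fibroblasts (log2 ratio 2.82). Hspd1 and Hspe1 encode the mitochondrial chaperonin and its cap, and share a promoter from which they are read in opposite directions. Hspd1 had 103 FPKM in FSP1+ and 33.0 FPKM in uninjured fibroblasts, and Hspe1 had 152 FPKM in FSP1+ and 46.4 FPKM in uninjured fibroblasts. This shared stretch was shown because it was the only one among the 9 list members with a promoter window that held the heat shock element searched for, in RefSeq sequence of GRCm38.p6, taking the 250 bases before the start of each gene. The capitals mark the element, in which blocks of GAA and TTC alternate (GAANNTTCNNGAA or TTCNNGAANNTTC on either strand, with overlaps).
Hspe1 (chr1:55088039-55088106, plus strand): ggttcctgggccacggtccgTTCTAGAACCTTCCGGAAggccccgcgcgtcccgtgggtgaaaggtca
Of 27025 genes with a window, 0.51% hold this element. The chaperone of the endoplasmic reticulum Hspa5, which answers to misfolded secretory proteins, had 499 FPKM in FSP1+ and 392 FPKM in uninjured fibroblasts.

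Inflammatory cytokines and targets of NF-κB were higher at 13 of 20 measured members with none lower (median 1.90). Nfkbia and Nfkbiz, feedback regulators that NF-κB itself induces, stood high: Nfkbia had 585 FPKM in FSP1+ fibroblasts, against 58.2 FPKM in uninjured fibroblasts (log2 ratio 3.31) and Nfkbiz had 298 FPKM in FSP1+ fibroblasts, against 10.5 FPKM in uninjured fibroblasts (log2 ratio 4.70). Il6, a cytokine of activated fibroblasts and macrophages, had 108 FPKM in FSP1+ fibroblasts, against 6.63 FPKM in uninjured fibroblasts (log2 ratio 3.83). Tnf, made chiefly by myeloid cells, had 20.03 FPKM in FSP1+ fibroblasts, against 0.0878 FPKM in uninjured fibroblasts (log2 ratio 4.27). The adhesion molecule Icam1 had 236 FPKM in FSP1+ and 37.3 FPKM in uninjured fibroblasts, whereas Vcam1 was within 2-fold, with 92.1 FPKM in FSP1+ and 68.9 FPKM in uninjured fibroblasts. Il33, an alarmin of stromal cells, had 27.0 FPKM in FSP1+ and 37.9 FPKM in uninjured fibroblasts.

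Chemokines were higher at 13 of 18 measured members with none lower (median 2.24). Of the monocyte attractants, Ccl2 had 379 FPKM in FSP1+ fibroblasts, against 22.3 FPKM in uninjured fibroblasts (log2 ratio 4.03), Ccl7 had 389 FPKM in FSP1+ fibroblasts, against 16.5 FPKM in uninjured fibroblasts (log2 ratio 4.48), and Ccl12, which shares their receptor, had 174 FPKM in FSP1+ fibroblasts, against 0.977 FPKM in uninjured fibroblasts (log2 ratio 6.47). Ccl3 and Ccl4, which macrophages secrete, had 97.6 FPKM in FSP1+ and 0.575 FPKM in uninjured fibroblasts and 277 FPKM in FSP1+ and 6.16 FPKM in uninjured fibroblasts, in that order. The neutrophil attractants of the CXC family were higher too, Cxcl1 with 344 FPKM in FSP1+ fibroblasts, against 28.5 FPKM in uninjured fibroblasts (log2 ratio 3.55) and Cxcl2 with 203 FPKM in FSP1+ fibroblasts, against 3.31 FPKM in uninjured fibroblasts (log2 ratio 5.57), while Cxcl3 was low, with 2.95 FPKM in FSP1+ and 0.120 FPKM in uninjured fibroblasts. Cxcl12, the stromal retention factor for progenitor cells, had 286 FPKM in FSP1+ fibroblasts, against 118 FPKM in uninjured fibroblasts (log2 ratio 1.27). Ccl11, Cxcl13 and Cx3cl1 were within 2-fold. Macrophage markers were higher in the same library, and their part in the chemokine levels was not tested.

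Promoters of these genes are shown because members of both lists were higher and some share a site. The NF-κB site, searched by its consensus on both strands, was found in the 250 bases before the start of 6 of 14 inflammatory genes with a window (Csf1, Il6, Irf1, Nfkbia, Sod2 and Tnfaip3) and of 4 of 11 chemokines (Ccl9, Cxcl1, Cxcl2 and Cxcl3), beside 4.46% of all genes. Capitals mark the site, and Cxcl1, Cxcl2 and Cxcl3, neighbours on chromosome 5, carry it in the same letters.
Cxcl1 (chr5:90891154-90891214, plus strand): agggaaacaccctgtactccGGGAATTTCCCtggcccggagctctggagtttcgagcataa
Cxcl2 (chr5:90903782-90903842, plus strand): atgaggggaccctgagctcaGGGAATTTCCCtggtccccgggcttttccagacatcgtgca
Cxcl3 (chr5:90786008-90786068, plus strand): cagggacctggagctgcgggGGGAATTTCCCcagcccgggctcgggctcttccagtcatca
Il6 (chr5:30013050-30013109, plus strand): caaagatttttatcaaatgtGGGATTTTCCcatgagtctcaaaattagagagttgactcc
Nfkbia (chr12:55492648-55492696, minus strand): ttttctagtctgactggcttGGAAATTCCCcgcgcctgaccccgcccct
The site does not go with one size of difference: Csf1, with 44.7 FPKM in FSP1+ and 32.0 FPKM in uninjured fibroblasts, and Sod2, with 13.1 FPKM in FSP1+ and 8.71 FPKM in uninjured fibroblasts, carry it and were within 2-fold. A match describes the letters and was not tested as a binding site. The inflammatory list was made up partly of known NF-κB targets, so its share beside all genes is not a finding of these data.

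Interferon-stimulated genes were higher at 16 of 19 measured members with none lower (median 1.68). Irf7, the transcription factor that amplifies the type I response, had 122 FPKM in FSP1+ fibroblasts, against 18.9 FPKM in uninjured fibroblasts (log2 ratio 2.63). The tethering factor Bst2 had 430.3 FPKM in FSP1+ fibroblasts, against 101 FPKM in uninjured fibroblasts (log2 ratio 2.08), the ubiquitin-like Isg15 had 107 FPKM in FSP1+ fibroblasts, against 27.8 FPKM in uninjured fibroblasts (log2 ratio 1.90) and the sensor enzyme Oas1a had 16.4 FPKM in FSP1+ and 2.09 FPKM in uninjured fibroblasts. The RNA sensors Ifih1 and Ddx58 were within 2-fold, Ifih1 with 8.15 FPKM in FSP1+ and 6.30 FPKM in uninjured fibroblasts and Ddx58 with 17.6 FPKM in FSP1+ and 14.4 FPKM in uninjured fibroblasts. In the αSMA table this list had a median of 0.33, αSMA over uninjured. The interferon-stimulated response element, searched as GAAANNGAAA on both strands, lay before the start of 6 of 14 members with a window (Bst2, Ifit3, Isg15, Oas1a, Rsad2 and Stat2), beside 3.46% of all genes. It is shown in capitals for the most abundant of these members.
Isg15 (chr4:156200845-156200916, minus strand): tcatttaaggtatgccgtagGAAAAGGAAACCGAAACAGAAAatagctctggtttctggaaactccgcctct
Bst2 (chr8:71537557-71537622, minus strand): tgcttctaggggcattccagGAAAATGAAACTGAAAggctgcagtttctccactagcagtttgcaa
In both, overlapping copies of the element run together. The list was chosen as genes that interferon induces, so its share beside all genes is not a finding of these data.

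Antigen presentation was higher at 7 of 9 measured genes (median 1.69). H2-K1, a class I heavy chain, had 991 FPKM in FSP1+ fibroblasts, against 174 FPKM in uninjured fibroblasts (log2 ratio 2.50). Psmb8 and Psmb9, subunits of the immunoproteasome, had 163 FPKM in FSP1+ and 36.0 FPKM in uninjured fibroblasts and 80.5 FPKM in FSP1+ and 16.6 FPKM in uninjured fibroblasts, in that order. Tap1, the peptide transporter, had 61.7 FPKM in FSP1+ and 15.7 FPKM in uninjured fibroblasts. H2-K1 belongs to a family of near-identical genes whose reads the counting may divide, so its value is uncertain. Of 13 measured acute phase and antimicrobial genes 8 were higher and 1 lower (median 1.54). Saa3, a serum amyloid made by stromal cells and macrophages, had 820.1 FPKM in FSP1+ fibroblasts, against 87.3 FPKM in uninjured fibroblasts (log2 ratio 3.22). The iron-trapping lipocalin Lcn2 had 60.5 FPKM in FSP1+ fibroblasts, against 2.84 FPKM in uninjured fibroblasts (log2 ratio 4.00), and Lrg1, a glycoprotein that endothelium also makes, had 168 FPKM in FSP1+ fibroblasts, against 9.91 FPKM in uninjured fibroblasts (log2 ratio 3.95). Among the S100 genes, the neighbours of S100a4 differed less: S100a6 had 362 FPKM in FSP1+ and 315 FPKM in uninjured fibroblasts and S100a11 had 866 FPKM in FSP1+ and 506 FPKM in uninjured fibroblasts. Complement genes were split, 2 higher and 2 lower of 10 (median -0.53). The receptors of myeloid cells C3ar1 and C5ar1 had 44.4 FPKM in FSP1+ and 4.67 FPKM in uninjured fibroblasts and 70.1 FPKM in FSP1+ and 1.31 FPKM in uninjured fibroblasts, in that order.

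**Figure D5:**
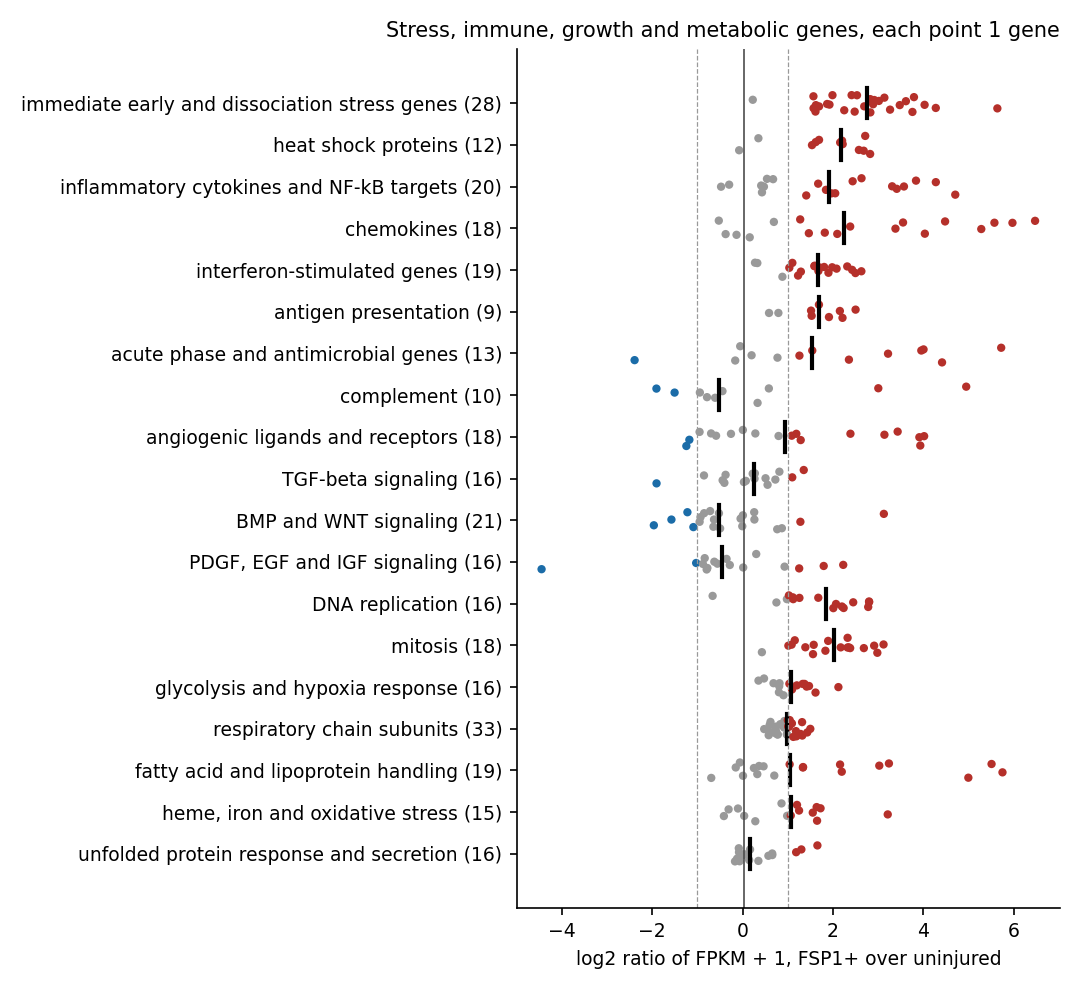
Log2 ratio of FPKM + 1, FSP1+ over uninjured, for the measured members of stress, immune, signaling, cell cycle and metabolic lists, with the number of members in parentheses; points, bars and lines as in the plot of matrix and cell type lists. Immediate early genes had a median of 2.76, chemokines 2.24 and mitosis genes 2.03, while BMP and WNT signaling was at -0.52.

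Genes of angiogenesis were 9 higher and 2 lower of 18 measured (median 0.94), with the largest ratios at the endothelial receptors. Flt1, Kdr, Tie1 and Flt4, receptor kinases of blood and lymph vessel endothelium, were all higher: Flt1 had 54.3 FPKM in FSP1+ fibroblasts, against 2.42 FPKM in uninjured fibroblasts (log2 ratio 4.01) and Flt4 had 25.7 FPKM in FSP1+ fibroblasts, against 2.03 FPKM in uninjured fibroblasts (log2 ratio 3.14). Among the ligands Vegfa had 34.7 FPKM in FSP1+ fibroblasts, against 14.7 FPKM in uninjured fibroblasts (log2 ratio 1.19), and placental growth factor (Pgf), a ligand of FLT1, had 57.7 FPKM in FSP1+ fibroblasts, against 10.2 FPKM in uninjured fibroblasts (log2 ratio 2.39). Apelin (Apln), made by sprouting endothelium, had 30.8 FPKM in FSP1+ fibroblasts, against 1.95 FPKM in uninjured fibroblasts (log2 ratio 3.43). Vegfb had 27.5 FPKM in FSP1+ and 22.4 FPKM in uninjured fibroblasts and Vegfc had 19.5 FPKM in FSP1+ and 19.4 FPKM in uninjured fibroblasts, both within 2-fold. Vegfd and Fgf2 were the lower members, Vegfd with 5.45 FPKM in FSP1+ and 14.3 FPKM in uninjured fibroblasts and Fgf2 with 2.89 FPKM in FSP1+ and 7.79 FPKM in uninjured fibroblasts. Hepatocyte growth factor (Hgf) had 3.86 FPKM in FSP1+ and 6.87 FPKM in uninjured fibroblasts. The endothelial markers were higher at 19 of 19 members in the same library, and their part in the receptor levels was not tested. Of 11 measured genes of Notch and vessel guidance 6 were higher and 1 lower (median 1.14). Hey1, a Notch target, had 31.8 FPKM in FSP1+ fibroblasts, against 5.76 FPKM in uninjured fibroblasts (log2 ratio 2.28), and the arterial ephrin Efnb2 had 24.5 FPKM in FSP1+ fibroblasts, against 3.16 FPKM in uninjured fibroblasts (log2 ratio 2.62), while Heyl, a Notch target of mural cells, had 24.4 FPKM in FSP1+ and 49.5 FPKM in uninjured fibroblasts.

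Signaling of TGF-β, which drives matrix synthesis, had 2 higher and 1 lower of 16 measured genes, with a median of 0.24 that turned to -0.11 after rescaling to TPM. The ligand Tgfb1 had 47.5 FPKM in FSP1+ fibroblasts, against 17.97 FPKM in uninjured fibroblasts (log2 ratio 1.35) and Tgfb2 had 5.12 FPKM in FSP1+ and 10.0 FPKM in uninjured fibroblasts. The receptors Tgfbr1 and Tgfbr2 were within 2-fold, Tgfbr1 with 11.4 FPKM in FSP1+ and 15.4 FPKM in uninjured fibroblasts and Tgfbr2 with 69.8 FPKM in FSP1+ and 68.3 FPKM in uninjured fibroblasts. The inhibitory Smad7 had 22.4 FPKM in FSP1+ fibroblasts, against 9.91 FPKM in uninjured fibroblasts (log2 ratio 1.10), and follistatin (Fst), which binds activins, had 4.48 FPKM in FSP1+ fibroblasts, against 19.5 FPKM in uninjured fibroblasts (log2 ratio -1.90). Of 21 measured genes of BMP and WNT signaling 2 were higher and 4 lower (median -0.52). The BMP target Id1, which endothelium uses strongly, had 192 FPKM in FSP1+ fibroblasts, against 21.1 FPKM in uninjured fibroblasts (log2 ratio 3.12). Of the secreted WNT antagonists, Frzb had 26.2 FPKM in FSP1+ fibroblasts, against 105 FPKM in uninjured fibroblasts (log2 ratio -1.96), Dkk3 had 127 FPKM in FSP1+ fibroblasts, against 379 FPKM in uninjured fibroblasts (log2 ratio -1.57) and Sfrp1 had 61.1 FPKM in FSP1+ fibroblasts, against 131 FPKM in uninjured fibroblasts (log2 ratio -1.09), while Wif1, with 6.77 FPKM in FSP1+ and 10.2 FPKM in uninjured fibroblasts, Sfrp4 and Dkk1 were within 2-fold. Of 16 measured genes of PDGF, EGF and IGF signaling 3 were higher and 2 lower (median -0.45). The lowest is the entry of Pdgfra, which holds a small RNA gene, and without it the median was -0.35. The EGF receptor ligands Areg and Hbegf had 4.24 FPKM in FSP1+ and 0.120 FPKM in uninjured fibroblasts and 19.8 FPKM in FSP1+ and 5.003 FPKM in uninjured fibroblasts, in that order, and Igf1, a survival factor from fibroblasts and macrophages, had 20.03 FPKM in FSP1+ and 35.4 FPKM in uninjured fibroblasts.

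Cell cycle genes were higher in FSP1+ fibroblasts. Of 18 measured genes of mitosis 17 were at least 2-fold higher and none lower (median 2.03), and of 16 genes of DNA replication 13 were higher and none lower (median 1.84). Their levels were modest, with a summed FPKM of 293 in FSP1+ and 54.8 in uninjured fibroblasts for mitosis. Mki67, present in cycling cells of any type, had 12.8 FPKM in FSP1+ fibroblasts, against 1.71 FPKM in uninjured fibroblasts (log2 ratio 2.35). Cdk1, the kinase that starts mitosis, had 13.9 FPKM in FSP1+ fibroblasts, against 1.32 FPKM in uninjured fibroblasts (log2 ratio 2.68), and its partner Ccnb2 had 28.4 FPKM in FSP1+ fibroblasts, against 2.39 FPKM in uninjured fibroblasts (log2 ratio 3.12). The ubiquitin carrier Ube2c had 53.9 FPKM in FSP1+ fibroblasts, against 11.2 FPKM in uninjured fibroblasts (log2 ratio 2.17). Among replication genes Pcna, the sliding clamp, had 69.6 FPKM in FSP1+ fibroblasts, against 15.8 FPKM in uninjured fibroblasts (log2 ratio 2.07), and Rrm2, which makes deoxynucleotides, had 39.7 FPKM in FSP1+ fibroblasts, against 4.86 FPKM in uninjured fibroblasts (log2 ratio 2.80). In the αSMA table these medians were -0.19 for mitosis and 0.22 for DNA replication, αSMA over uninjured. Which cell type of the FSP1+ library the cycling RNA came from cannot be read from bulk values.

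An E2F site, searched as TTTCGCGC or TTTGGCGC on both strands with overlaps, lay before the start of 5 of 15 replication genes with a window (Mcm5, Mcm6, Pola1, Rfc3 and Uhrf1), beside 0.76% of all genes. It is shown in capitals for both helicase subunits among them, since they were higher by different amounts: Mcm6 had 44.5 FPKM in FSP1+ fibroblasts, against 13.3 FPKM in uninjured fibroblasts (log2 ratio 1.67) and Mcm5 had 16.5 FPKM in FSP1+ fibroblasts, against 2.80 FPKM in uninjured fibroblasts (log2 ratio 2.20).
Mcm6 (chr1:128359715-128359835, minus strand): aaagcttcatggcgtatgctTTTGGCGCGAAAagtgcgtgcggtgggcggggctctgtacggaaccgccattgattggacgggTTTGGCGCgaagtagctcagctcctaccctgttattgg
Mcm5 (chr8:75109336-75109397, plus strand): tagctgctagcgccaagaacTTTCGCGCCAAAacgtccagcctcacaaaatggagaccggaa
Pola1 carries the site as well and was not higher, with 4.007 FPKM in FSP1+ and 6.92 FPKM in uninjured fibroblasts, in an entry that holds a small RNA gene. Of 10 measured cyclins and cell cycle inhibitors 3 were higher and 2 lower (median 0.50). Cdkn1a, the p21 inhibitor, had 157 FPKM in FSP1+ fibroblasts, against 37.7 FPKM in uninjured fibroblasts (log2 ratio 2.03), E2f1 had 18.5 FPKM in FSP1+ and 5.01 FPKM in uninjured fibroblasts, and Gas1, a growth arrest gene of resting fibroblasts, had 59.1 FPKM in FSP1+ fibroblasts, against 174 FPKM in uninjured fibroblasts (log2 ratio -1.54).

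Genes of energy metabolism differed by smaller amounts. All 33 measured subunits of the respiratory chain were above their uninjured level, and 15 passed 2-fold (median 0.98), beside 36.5% and a median of 0.74 over all genes of 50 FPKM and above. Cox5a, a subunit of cytochrome oxidase, had 193 FPKM in FSP1+ fibroblasts, against 67.6 FPKM in uninjured fibroblasts (log2 ratio 1.50), and the complex I subunit Ndufa6 was nearest to equality, with 208 FPKM in FSP1+ and 149 FPKM in uninjured fibroblasts. Of 16 measured genes of glycolysis and the hypoxia response 9 were higher and none lower (median 1.07). Pyruvate kinase (Pkm) had 513 FPKM in FSP1+ fibroblasts, against 167 FPKM in uninjured fibroblasts (log2 ratio 1.61), Ldha had 421 FPKM in FSP1+ and 162 FPKM in uninjured fibroblasts and Gapdh had 246 FPKM in FSP1+ and 106 FPKM in uninjured fibroblasts. Under TPM both medians stayed above 0, at 0.59 and 0.81. Of 19 measured genes of fatty acid and lipoprotein handling 10 were higher and none lower (median 1.04). The largest ratios were those of capillary genes: Gpihbp1, which holds lipoprotein lipase on the vessel wall, had 566 FPKM in FSP1+ fibroblasts, against 11.5 FPKM in uninjured fibroblasts (log2 ratio 5.51), and the fatty acid transporter Cd36 had 351 FPKM in FSP1+ fibroblasts, against 10.0 FPKM in uninjured fibroblasts (log2 ratio 4.99). Lipoprotein lipase itself (Lpl) had 85.5 FPKM in FSP1+ and 95.0 FPKM in uninjured fibroblasts. Apoe, made by macrophages and fibroblasts, had 4386 FPKM in FSP1+ fibroblasts, against 1738 FPKM in uninjured fibroblasts (log2 ratio 1.33).

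Of 15 measured genes of heme, iron and oxidative stress 8 were higher and none lower (median 1.07), among them heme oxygenase (Hmox1), with 176 FPKM in FSP1+ fibroblasts, against 18.1 FPKM in uninjured fibroblasts (log2 ratio 3.21), and the ferritin heavy chain Fth1, with 2319 FPKM in FSP1+ fibroblasts, against 1006 FPKM in uninjured fibroblasts (log2 ratio 1.20). Of 14 lysosomal genes 4 were higher (median 0.52), with legumain (Lgmn) at 132 FPKM in FSP1+ and 33.5 FPKM in uninjured fibroblasts and cathepsin K (Ctsk) at 34.9 FPKM in FSP1+ and 65.5 FPKM in uninjured fibroblasts. Of 16 genes of the unfolded protein response and secretion 3 were higher and none lower (median 0.16, and -0.24 under TPM), and calreticulin (Calr) had 127 FPKM in FSP1+ and 125 FPKM in uninjured fibroblasts. Of 12 genes of ribosome biogenesis 1 was higher (median 0.54), Rrp9 at a log2 ratio of 1.19. Of 13 measured integrins 4 were higher and 3 lower (median 0.37, and -0.13 under TPM). The leukocyte chain Itgb2 had 57.4 FPKM in FSP1+ fibroblasts, against 4.97 FPKM in uninjured fibroblasts (log2 ratio 3.29), Itga6 had 86.0 FPKM in FSP1+ and 11.7 FPKM in uninjured fibroblasts, and the collagen receptor chain Itga11 had 9.49 FPKM in FSP1+ fibroblasts, against 30.4 FPKM in uninjured fibroblasts (log2 ratio -1.58). Of 12 genes of hyaluronan and adhesion 4 were higher and 2 lower (median 0.18, and -0.21 under TPM): the hyaluronan synthase Has1 had 72.1 FPKM in FSP1+ fibroblasts, against 4.90 FPKM in uninjured fibroblasts (log2 ratio 3.63), and cadherin 11 (Cdh11), a fibroblast adhesion molecule, had 5.78 FPKM in FSP1+ and 18.4 FPKM in uninjured fibroblasts in an entry that holds a small RNA gene. Of 4 measured mitochondrial transcripts 2 were higher (median 1.05), and mt-Co2 had 2629 FPKM in FSP1+ and 1160.5 FPKM in uninjured fibroblasts.

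The highest and lowest log2 ratios were taken from 4866 protein-coding genes whose entry holds no small RNA gene. These had at least 1 FPKM in both libraries and 10 FPKM in either. Of the 30 genes with the highest ratios, 11 were on the endothelial or macrophage list and 19 were on some list. The ratios of these 30 lay between 4.62 and 7.30. The highest was Slc7a6, an amino acid transporter, with 1313 FPKM in FSP1+ fibroblasts, against 7.31 FPKM in uninjured fibroblasts (log2 ratio 7.30), far above the next gene. Behind it came Cd14, C1qc, Rbp7, a retinoid carrier of capillary endothelium, with 272 FPKM in FSP1+ fibroblasts, against 3.70 FPKM in uninjured fibroblasts (log2 ratio 5.86), and Fabp4. Of those on no list, Tcf15, a transcription factor of capillary endothelium, had 154 FPKM in FSP1+ fibroblasts, against 2.92 FPKM in uninjured fibroblasts (log2 ratio 5.31), Icam2, an adhesion molecule of endothelium and blood cells, had 177 FPKM in FSP1+ fibroblasts, against 5.20 FPKM in uninjured fibroblasts (log2 ratio 4.85), and Rgcc, a regulator of the cell cycle, had 465 FPKM in FSP1+ fibroblasts, against 12.3 FPKM in uninjured fibroblasts (log2 ratio 5.13). Nrgn, a calmodulin-binding protein known from neurons and platelets, had 101 FPKM in FSP1+ fibroblasts, against 1.30 FPKM in uninjured fibroblasts (log2 ratio 5.46).

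Of the 30 genes with the lowest ratios, which lay between -3.39 and -1.93, 5 were on a matrix list and 14 had under 30 FPKM in uninjured fibroblasts. The lowest was Laptm4b, a membrane protein of lysosomes, with 23.4 FPKM in FSP1+ fibroblasts, against 255 FPKM in uninjured fibroblasts (log2 ratio -3.39). Elastin, Col8a2, Mfap4 and Ccn5 followed within the next 5. Clec11a, a secreted growth factor of bone-forming stroma, had 11.1 FPKM in FSP1+ fibroblasts, against 56.5 FPKM in uninjured fibroblasts (log2 ratio -2.25), and Tbx20, a transcription factor of heart development, had 7.67 FPKM in FSP1+ fibroblasts, against 39.6 FPKM in uninjured fibroblasts (log2 ratio -2.23). The remaining members included genes of immune or germ cells at low level, such as Crtam, with 1.05 FPKM in FSP1+ and 11.7 FPKM in uninjured fibroblasts, Aurkc, with 1.20 FPKM in FSP1+ and 11.2 FPKM in uninjured fibroblasts, and Klrb1, with 4.70 FPKM in FSP1+ and 31.8 FPKM in uninjured fibroblasts, and the olfactory receptor gene Olfr613, with 44.6 FPKM in FSP1+ and 173 FPKM in uninjured fibroblasts.

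The 10 most abundant protein-coding genes of each library, without entries that hold a small RNA gene, shared 3 members, Gsn, Rpl41 and Lars2. Col3a1, with 3112 FPKM in uninjured fibroblasts, was left out for this reason. In FSP1+ fibroblasts the list was led by the actin-binding thymosin Tmsb4x, with 4541 FPKM in FSP1+ fibroblasts, against 1314 FPKM in uninjured fibroblasts (log2 ratio 1.79), Apoe and Lars2, and it also held Fabp4 and Junb. In uninjured fibroblasts it was led by Gsn, Mgp and the collagen chaperone Sparc, with 2298 FPKM in FSP1+ fibroblasts, against 3383 FPKM in uninjured fibroblasts (log2 ratio -0.56), and held Bgn, Col1a1, Dcn and Col1a2. Septin7, Akt2 and Gchfr were listed at 0 in uninjured fibroblasts and at 112, 24.8 and 10.6 FPKM, in that order, in FSP1+ fibroblasts. Defb13 and Sprr4 were listed at 0 in FSP1+ fibroblasts and at 15.9 and 15.4 FPKM, in that order, in uninjured fibroblasts. Septin7 and Akt2 are used by nearly every cell, so that a listed 0 may be a failed estimate, and no fold is given against it. In the table with the αSMA library, the same uninjured library had 31.2 FPKM for Akt2, so the 0 of Akt2 is particular to 1 table. Septin7 and Gchfr were listed at 0 for the uninjured library there too.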

How the data were processed

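RNA of FSP1+ and uninjured mouse heart fibroblasts was sequenced with 1 library a group, and a library of αSMA+ cells served for checks. The authors aligned reads to GRCm38 and computed FPKM with Cuffdiff, whose version is not given in the sources used here. Each of the 3 deposited tables holds FPKM of a pair of libraries, scaled within that table, beside a fold, a test statistic, p-values and q-values of the authors' own comparison, which were not used. The added 0.001 was subtracted. Naming by position required an entry with a locus to itself that shared at least 0.8 of the union with a RefSeq (GRCm38.p6) or GENCODE M21 gene, with the next gene below 0.7. This left 8265 entries that share a locus unnamed, and 657 of those named contain a same-strand small RNA gene. Ratios used FPKM with 1 added and a minimum of 1 FPKM in either library. Without read numbers no counting interval was given. The records differ on the layout of the reads.

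Genes were named by rule: S100a4, Acta2, the 30 highest and the 30 lowest ratios, each library's 10 most abundant genes (protein coding, no small RNA in the entry, 10 FPKM in either), genes listed at 0 in 1 library with 10 FPKM in the other, and the most abundant or most different members of 43 lists. The members and lists were chosen with earlier results of these data known. Tbk1 and Tmem104 were named as neighbours of the 2-fold line. Promoters were the 250 bases before each start in RefSeq. Some genes that the rule takes are not reported here. The ratio script was tested on simulated data. Software was matplotlib 3.10.9, NumPy 2.4.6, pandas 2.3.3 and Python 3.11.15.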

Additional observations from a re-analysis of the deposited data

How the results depend on the processing

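No paired analysis was possible because each group has 1 library. The count of genes at least 2-fold higher (1761) became 1083 with a pseudocount of 5 and 613 at a 4-fold line. The count of lower genes (1847) moved further: 2898 with a pseudocount of 0.1, 381 with a pseudocount of 5, 778 with 5 FPKM in either library, 802 with 1 FPKM in both, 4341 with TPM, 1180 through the αSMA library, 179 at a 4-fold line and, chosen after seeing the data, 434 with 10 FPKM in either. The other settings left both counts within 1.5 times. Of 559 list medians under alternatives 538 moved by less than 0.585 log2 units, and none of at least 2-fold changed sign under these settings, which all keep the library labelled uninjured. With a pseudocount of 5 medians became 3.25 for endothelial, 2.97 for macrophage and 2.35 for erythroid and platelet markers, 1.27 for inflammatory genes, 1.56 for chemokines, 1.23 for DNA replication and 1.30 for mitosis. With a pseudocount of 0.1 they became 4.71 for macrophage markers, -1.51 for lymphocyte and dendritic cell markers and 3.08 for chemokines. With 5 FPKM in either, neutrophil markers had 2.34 and chemokines 2.88. With 10 FPKM in either, neutrophil markers had 2.95, lymphocyte and dendritic cell markers 1.38 (Zbtb46 alone, in an entry that holds a small RNA gene), chemokines 3.46 and acute phase genes 2.78. With no filter lymphocyte and dendritic cell markers had -0.083. The mean in place of the median was 1.60 for neutrophil markers, 0.27 for complement, 0.47 for metalloproteinases and 1.67 for fatty acid handling. Of 23 lists with a median of at least 2-fold, 10 came under 2-fold in some alternative. Akt2, listed at 0 in the uninjured library, had a log2 ratio of -0.27 through the αSMA library, where each table gives its own estimate. With 1 library a group the spread between animals limits every value, and the depth is unknown.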

Other observations

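Genes outside the lists, some of them known from capillary endothelium, were named here after their values were seen. That they were higher in FSP1+ fibroblasts therefore adds no support to the listed markers. Car4, a carbonic anhydrase of capillaries, had 19.3 FPKM in FSP1+ fibroblasts, against 0.679 FPKM in uninjured fibroblasts (log2 ratio 3.59). Cav1, which forms caveolae, had 388 FPKM in FSP1+ fibroblasts, against 37.5 FPKM in uninjured fibroblasts (log2 ratio 3.34), and its partner Cav2 had 113 FPKM in FSP1+ fibroblasts, against 12.2 FPKM in uninjured fibroblasts (log2 ratio 3.11). Cd300lg, a receptor of capillary endothelium, had 88.7 FPKM in FSP1+ fibroblasts, against 4.40 FPKM in uninjured fibroblasts (log2 ratio 4.05). Meox2, a transcription factor of heart endothelium, had 36.4 FPKM in FSP1+ fibroblasts, against 7.26 FPKM in uninjured fibroblasts (log2 ratio 2.18). Sgk1, a kinase that serum and glucocorticoids induce, had 191 FPKM in FSP1+ fibroblasts, against 15.7 FPKM in uninjured fibroblasts (log2 ratio 3.52).

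Receptor genes of sensory neurons were lower as families: none of 57 measured vomeronasal receptor genes was at least 2-fold higher and 27 were lower (median -0.97), with a summed FPKM of 121 in FSP1+ and 356 in uninjured fibroblasts over 339 named genes. Of 18 measured beta defensins 2 were higher and 9 lower. Long noncoding genes leaned the same way, 5 higher and 174 lower of 313 measured lincRNA genes. Leaving out the olfactory, vomeronasal, taste and trace amine receptor genes left 1631 lower genes. Of 57 measured cytosolic ribosomal protein genes 4 were at least 2-fold higher (median 0.55), and of 65 mitochondrial ones 2 were (median 0.51), both shares under the 14.5% of all genes. Both were also under the 23.7% of genes of 10 FPKM and above and the 36.5% of genes of 50 FPKM and above. Those genes had medians of 0.46 and 0.74, in that order. Among noncoding RNAs of known function Malat1 had 412 FPKM in FSP1+ and 411 FPKM in uninjured fibroblasts, while the imprinted Meg3 had 42.8 FPKM in FSP1+ and 107 FPKM in uninjured fibroblasts and Snhg1, a host of small nucleolar RNAs, had 77.4 FPKM in FSP1+ and 14.5 FPKM in uninjured fibroblasts. The Y-linked genes Ddx3y, with 11.8 FPKM in FSP1+ and 10.9 FPKM in uninjured fibroblasts, and Eif2s3y, with 16.5 FPKM in FSP1+ and 12.2 FPKM in uninjured fibroblasts, were present in both libraries. The Y-linked Kdm5d was lower, with 2.72 FPKM in FSP1+ and 8.26 FPKM in uninjured fibroblasts (log2 ratio -1.32).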
